A study of Mus musculus with 9 samples.

Results

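The 37 genes described here are the mouse fibroblast growth factor (FGF) genes, the FGF receptor genes and the feedback and target genes Spry, Spred, Etv4, Etv5 and Dusp6. They were listed by symbol and family, and comprise 15 canonical ligands, 4 intracellular FGFs, 3 endocrine ligands, 5 receptors and 10 feedback and target genes. Of these, 36 were found among the 38560 genes of the count table, 25 had enough reads to be tested, and 11 fell below the filter on low counts. Spry3 was not matched in the table and is not analysed here.

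The expression data came from RNA sequencing of cells sorted from fetal mouse testes at 12.5 days post coitum. All mice were of the Sf1-eGFP strain, which carries a green fluorescent reporter for the steroidogenic factor SF1, and the 3 sorted populations are named Sertoli, Leydig and Interstitial. All 3 came from the same kind of animal, and all were sorted with an antibody to CD31 meant to remove germ and endothelial cells. No fluorescence gate is stated in those labels. Each population has replicates A, B and C of 100 ng total RNA, and a replicate pools about 10 sorts of 4 to 10 litters each. Per the protocols 1 of 3 samples per population mixes the other two, and by elimination C was taken as that mix, although no label says so. Tests therefore used A and B alone (n = 2 pools per population), and C is given beside them. P-values of the comparisons between populations measure the spread between pools, not between animals.

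Depth ran from 33.12 to 39.24 M reads in genes per library (M, 1e6), so that 3 reads, the upper limit that a count of 0 allows, correspond to 0.0764 to 0.0906 CPM (counts per 1e6 reads in genes, after TMM normalisation where a level is given). The labels hold only in part. Summed over 14 Sertoli markers, the level was 4920 to 5250 CPM in the Sertoli libraries, 1690 to 1800 in Leydig and 349 to 405 in Interstitial. The 6 fetal Leydig markers summed to 236 to 446 CPM in Leydig and 257 to 309 in Sertoli, and none of the 6 passed the test between these populations, while they summed to 41.8 to 65 in Interstitial. The 9 interstitial progenitor markers summed to 1810 to 2020 CPM in Leydig, 672 to 727 in Sertoli and 1310 to 1350 in Interstitial. In the Interstitial libraries 9 germ cell markers summed to 911 to 1040 CPM (89.3 to 275 in Leydig, 84.5 to 121 in Sertoli), and 8 erythroid markers to 13000 to 13500 CPM (151 to 531 and 155 to 439). No marker of these lists was at 0 in every library. The names Sertoli, Leydig and Interstitial are therefore used below for the sorts, not for pure cell types. In such bulk samples fewer cells of a type and less RNA per cell cannot be told apart, which holds for every difference below.

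FGFs are secreted proteins that bind receptor tyrosine kinases together with heparan sulfate, and signal through the Ras and ERK kinase cascade. The ERK signal switches on its own inhibitors, among them the Sprouty (Spry) and Spred proteins and the ERK phosphatase Dusp6, so that levels of these genes are widely used as a readout of pathway activity. In the fetal mouse testis, Fgf9 is made by Sertoli cells and is needed for testis development, with Fgfr2 as a receptor in the somatic cells of the XY gonad.

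The promoters of 3 members stand here because they represent the main patterns among the genes below: Fgf9 and Fgfrl1 were highest in the Sertoli sort, and Fgf10 was lowest there. Each window is the 250 bases upstream of the RefSeq transcription start (GRCm38.p6, plus strand, 5′ to 3′), at chr14:58072436-58072685 for Fgf9, chr5:108693979-108694228 for Fgfrl1 and chr13:118714449-118714698 for Fgf10. The annotation used for exon lengths starts these genes further upstream, at 58070547 for Fgf9, 108692382 for Fgfrl1 and 118669791 for Fgf10. Each window therefore lies inside the annotated span of its gene, and the sequence upstream of that span was not searched. Capitals mark matches to 4 motifs searched on both strands.
Fgf9: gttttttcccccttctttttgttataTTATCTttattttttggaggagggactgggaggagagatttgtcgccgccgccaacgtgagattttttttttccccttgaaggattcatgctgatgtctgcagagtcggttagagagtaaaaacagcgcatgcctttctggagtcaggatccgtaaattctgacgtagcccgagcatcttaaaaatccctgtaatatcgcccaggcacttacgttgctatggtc
Fgfrl1: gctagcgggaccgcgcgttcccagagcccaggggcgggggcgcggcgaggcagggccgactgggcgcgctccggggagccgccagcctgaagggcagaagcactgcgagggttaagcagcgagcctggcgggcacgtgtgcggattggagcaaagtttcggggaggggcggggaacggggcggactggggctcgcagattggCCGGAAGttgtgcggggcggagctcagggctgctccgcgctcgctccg
Fgf10: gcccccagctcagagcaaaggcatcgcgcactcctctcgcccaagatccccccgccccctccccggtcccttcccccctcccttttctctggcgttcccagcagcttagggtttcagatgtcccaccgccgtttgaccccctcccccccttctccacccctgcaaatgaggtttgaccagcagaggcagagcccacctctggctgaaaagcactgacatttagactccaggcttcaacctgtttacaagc

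The motifs were the ETS core CCGGAAG (the site type bound by Etv4 and Etv5), the SF1 site CAAGGTCA, the SOX site AACAAT and the GATA site AGATAA. The Fgf9 window has a GATA match on the minus strand at positions -224 to -219 from the start, so that it reads TTATCT above. The Fgfrl1 window has an ETS match on the plus strand at -48 to -42, and the Fgf10 window has no match to any of the 4. GC content was 44.8% in the Fgf9 window, 73.6% in the Fgfrl1 window and 61.2% in the Fgf10 window, with 11, 30 and 8 CpG sites. Of the 27 members with a RefSeq window off chromosome 18, 1 had an ETS match (Fgfrl1), 0 an SF1 match, 2 a SOX match (Fgf23, Dusp6) and 4 a GATA match (Fgf9, Fgf3, Fgf23, Spred3). Over all 32851 RefSeq windows of this length the shares were 6.91%, 1.33%, 9.42% and 9.99%. These shares are per window, and on that scale the matches were 1, 0, 2 and 4 of the 35 windows of the 27 members. A match is a description of letters, and was not tested as a binding site. Windows of Etv4, Fgf1, Fgf8, Fgf15, Fgf16, Fgf17, Fgf20, Fgfr1, Spry3 and Spry4 were not used here.

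Among the 25 tested members, 18 differed between Leydig and Sertoli (10 higher and 8 lower in Leydig), 13 between Leydig and Interstitial (8 higher, 5 lower) and 20 between Interstitial and Sertoli (12 higher, 8 lower in Interstitial). These calls are at an adjusted p of 0.05 by edgeR's quasi-likelihood test with Benjamini-Hochberg adjustment over the 18048 genes tested, as is every adjusted p below. Of all tested genes, 37.5% were called in the first comparison (16.9% higher, 20.6% lower), 45.1% in the second (22.0% higher, 23.2% lower) and 61.8% in the third (32.7% higher, 29.1% lower). Scaled by library size alone, the median of all genes moved from -0.01, 0.01 and 0.04 to 0.10, -0.05 and 0.21, and the calls over all genes from 3053 higher and 3709 lower to 4007 and 2805, from 3966 and 4180 to 3245 and 4833, and from 5901 and 5254 to 7530 and 4014. The members' own counts moved by at most 1 under that scaling, to 10 and 8, 8 and 6, and 12 and 7. The members' shares were 72%, 52% and 80%. The median log2 difference of the tested members was 0.087, 0.117 and 0.223, beside -0.005, 0.01 and 0.043 over all genes tested. A gene scarce in 1 sort passes the filter on low counts only through the sort where it is high, so these shares describe the tested members alone. The comparisons share libraries and are not independent of each other. The 5 lower calls in Leydig against Interstitial fell to 3 without Leydig replicate A and to 3 without Interstitial replicate B.

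**Figure D1:**
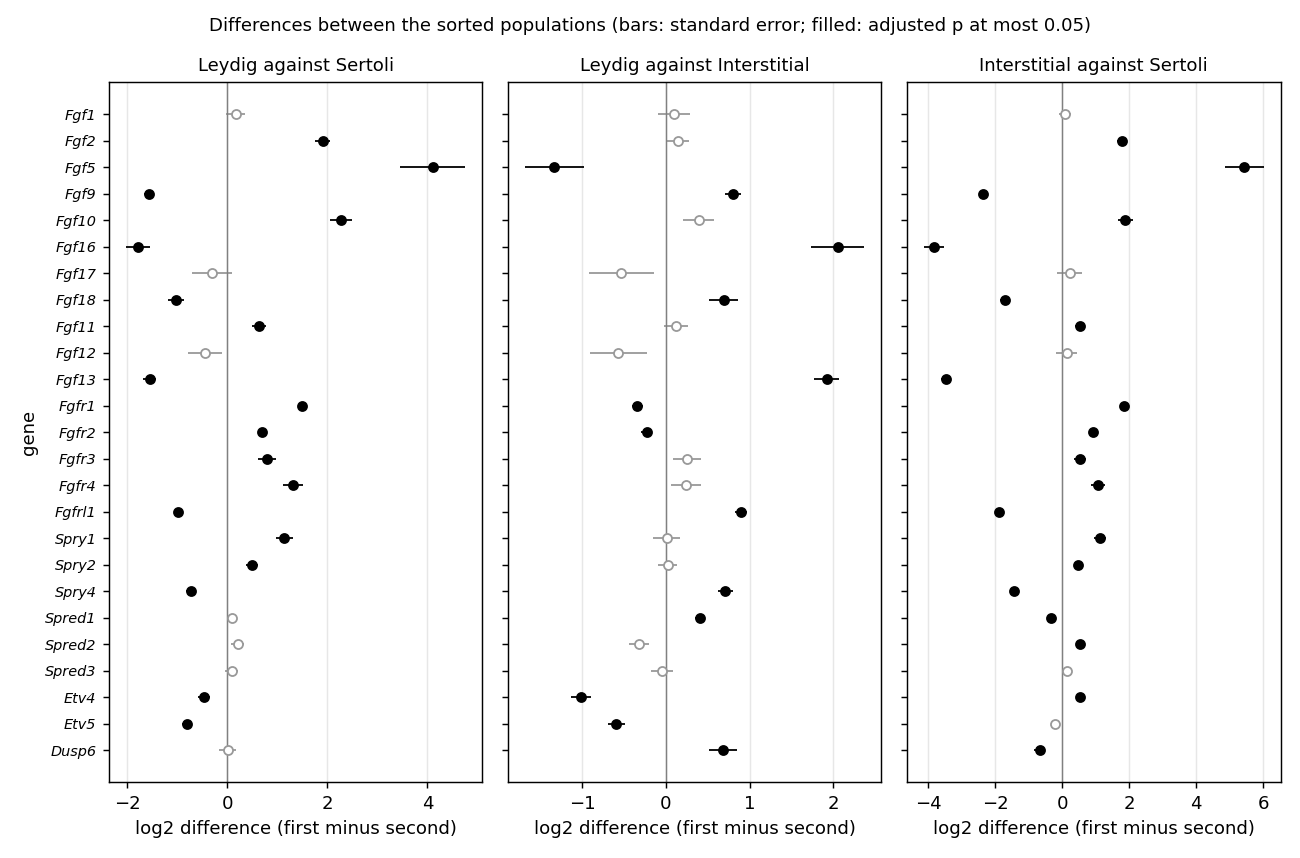
Differences in expression of the 25 tested members (log2 of the first population over the second, x axis; gene, y axis) for the 3 comparisons, with bars for the standard error and filled points for an adjusted p of at most 0.05. Fgf5 lies farthest to the right in the panels against Sertoli (4.11 and 5.44), and Fgf16 and Fgf13 farthest to the left in Interstitial against Sertoli (-3.83 and -3.47).

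The secreted ligands Fgf9, Fgf18 and Fgf16, were highest in the Sertoli sort, intermediate in Leydig and lowest in Interstitial. Fgf9 (ENSMUSG00000021974, chromosome 14, 58070547 to 58112720, mm10) read 53.5, 54.3 and 53.8 CPM in Sertoli A, B and C, 16.6, 19.7 and 18.4 in Leydig, and 10.5, 10.5 and 11.9 in Interstitial. The 3 groups did not overlap, and the Sertoli libraries lay at nearly the same level. Fgf9 was 2.96-fold lower in Leydig than in Sertoli (log2 difference -1.57 ± 0.10 SE, adjusted p = 5.84e-06) and 5.14-fold lower in Interstitial than in Sertoli (-2.36 ± 0.10, adjusted p = 1.96e-07). It was 1.74-fold higher in Leydig than in Interstitial (0.80 ± 0.10, adjusted p = 0.000386).

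Fgf18, a ligand best known from skeleton and lung development, read 10.7, 11.3 and 10.4 CPM in Sertoli, 4.99, 5.84 and 5.55 in Leydig and 3.71, 2.97 and 3.12 in Interstitial, again without overlap between the groups. The log2 difference was -1.02 ± 0.16 for Leydig against Sertoli (adjusted p = 0.000959) and -1.71 ± 0.16 for Interstitial against Sertoli (adjusted p = 2.71e-05). For Leydig against Interstitial it was 0.69 ± 0.17 (adjusted p = 0.00933). That last call was lost without Interstitial replicate B and with the first 2 lanes alone, and over all alternatives the value ran from 0.28 to 0.86.

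Fgf16, of the same subfamily as Fgf9, read 4.16, 4.22 and 4.81 CPM in Sertoli, 0.991, 1.44 and 1.03 in Leydig and 0.269, 0.317 and 0.172 in Interstitial. No library of a sort overlapped with another sort. The Interstitial level was 14.2-fold lower than that of Sertoli (log2 -3.83 ± 0.29, adjusted p = 6.72e-06). Leydig lay 3.43-fold below Sertoli (-1.78 ± 0.24, adjusted p = 0.000428) and 4.14-fold above Interstitial (2.05 ± 0.32, adjusted p = 0.00116). Fgf16 lies on chromosome X (105764279 to 105774939).

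The Sertoli markers moved the same way as these 3 ligands: 14 of 14 were lower in Leydig and in Interstitial than in Sertoli, and 13 of 14 were higher in Leydig than in Interstitial. Their summed levels are given above. Of all genes tested, 20.6% were lower in Leydig and 29.1% in Interstitial than in Sertoli. The share higher in Leydig than in Interstitial was 22.0%. The part that Sertoli cells in the Leydig sort have in the ligand levels was not tested.

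Fgf2, Fgf10 and Fgf5 had their lowest level in Sertoli. Fgf10, which mesenchymal cells typically secrete toward epithelium, read 7.93, 8.89 and 8.61 CPM in Leydig, 6.31, 6.54 and 6.10 in Interstitial and 1.33, 2.17 and 1.83 in Sertoli. Leydig and Interstitial were close and both lay well above Sertoli. The gene (ENSMUSG00000021732, chromosome 13, 118669791 to 118792115) was 4.82-fold higher in Leydig than in Sertoli (2.27 ± 0.22, adjusted p = 6.61e-05) and 3.67-fold higher in Interstitial (1.88 ± 0.22, adjusted p = 9.77e-05). Between Leydig and Interstitial the difference of 0.39 ± 0.19 did not pass (adjusted p = 0.129).

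Fgf2, the basic FGF that binds heparan sulfate tightly and leaves cells without a classical signal peptide, read 8.59, 7.89 and 8.42 CPM in Leydig, 7.63, 7.37 and 7.11 in Interstitial and 2.19, 2.17 and 2.77 in Sertoli. It was 3.77-fold higher in Leydig than in Sertoli (1.91 ± 0.15, adjusted p = 1.91e-05) and 3.43-fold higher in Interstitial than in Sertoli (1.78 ± 0.15, adjusted p = 1.24e-05). Leydig and Interstitial differed by 0.14 ± 0.13 (adjusted p = 0.438). Exons of Fgf2 overlap 640 bases of Nudt6 on the opposite strand. Whether reads were counted by strand is not stated, and Nudt6 itself held 534 reads over the 9 libraries.

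Fgf5, known as a brake on hair growth, was the member with the widest spread. Its read counts were 1, 2 and 4 in Sertoli, 17, 39 and 31 in Leydig and 83, 73 and 89 in Interstitial, or 0.0289 to 0.111, 0.511 to 1.12 and 2.03 to 2.19 CPM. All groups were apart, and Interstitial rather than Leydig was the highest. Over replicates A and B together, the Interstitial level was 46.6 times that of Sertoli (95% counting interval 15.7 to 228, from 156 and 3 reads) and the Leydig level 18.6 times (6.05 to 92.9, from 56 and 3 reads). The fitted log2 differences were 5.44 ± 0.57 (adjusted p = 5.12e-05) and 4.11 ± 0.65 (adjusted p = 0.00122), values that depend on the low Sertoli counts. Leydig was 2.51-fold lower than Interstitial (-1.33 ± 0.35, adjusted p = 0.0136), a call that was lost without Leydig replicate A or without Interstitial replicate B, with values from -2.02 to -0.87.

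The interstitial progenitor markers moved in part with these ligands: 8 of 9 were higher in Leydig and 7 of 9 in Interstitial than in Sertoli, but 7 of 9 were higher in Leydig than in Interstitial, an order that Fgf5 did not share. Among other cell types, the endothelial markers summed to 208 to 240 CPM in Leydig, 43.7 to 46.8 in Sertoli and 238 to 267 in Interstitial. Macrophage markers summed to 10.5 to 18.4, 1.33 to 1.87 and 36.5 to 57.8 CPM, and mesonephric tubule markers to 59.2 to 83.8, 40.8 to 46.8 and 214 to 253 CPM. Mesothelial markers summed to 343 to 359, 430 to 455 and 313 to 342 CPM, and those of smooth muscle and pericytes to 250 to 258, 192 to 226 and 180 to 186 CPM. The part of these cells in the levels of Fgf2, Fgf10 and Fgf5 was not tested.

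Fgf1 and Fgf17 gave no difference that passed the test in any comparison. Fgf1, a ligand able to activate all FGF receptors, read between 2.19 and 3.68 CPM over the 9 libraries, and its largest difference was 0.17 ± 0.19 (Leydig against Sertoli, adjusted p = 0.523). Fgf17, a relative of Fgf8, read between 0.271 and 0.749 CPM, and its differences lay between -0.53 ± 0.39 and 0.22 ± 0.37. At this depth such SEs leave smaller differences of Fgf17 undetectable.

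**Figure D2:**
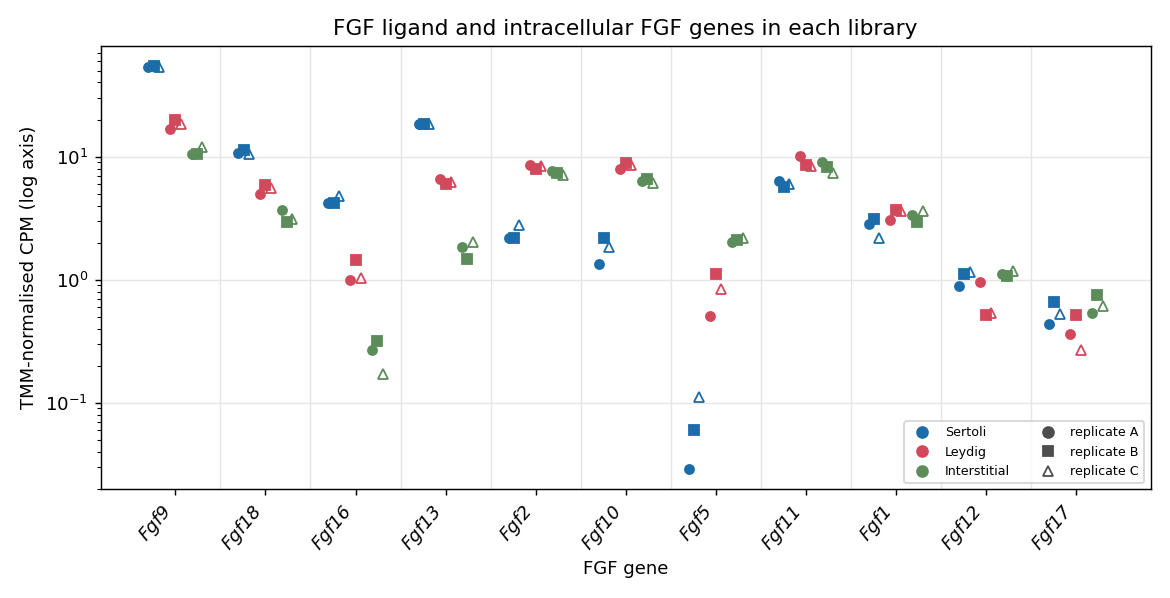
Levels of the 11 tested FGF ligand and intracellular FGF genes (gene, x axis; TMM-normalised CPM, logarithmic y axis) in each library, coloured by population and with marker shape for the replicate. Fgf9, Fgf18, Fgf16 and Fgf13 are highest in Sertoli, and Fgf2, Fgf10 and Fgf5 are lowest there.

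The remaining ligands were near or at the limit of detection. Fgf7, the mesenchymal keratinocyte growth factor, had 80 reads in all 9 libraries, between 3 and 15 in each. Fgf3 had 52 reads (13, 9 and 9 of them in Interstitial) and Fgf20, the third member of the Fgf9 subfamily, had 49 (9, 13 and 9 in Interstitial, 1 to 6 in each of the other libraries). Fgf8, a ligand of many embryonic signalling centres, had 24, with 4, 6 and 6 in the Interstitial libraries. Fgf4, best known from early embryos and limb buds, had 14 reads, with 5, 7 and 0 in Interstitial A, B and C. Fgf22 had 10 and Fgf6 had 1, in Sertoli C.

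Among the endocrine ligands, which act at a distance with Klotho proteins as co-receptors, Fgf15 had 14 reads, Fgf21 had 15 and Fgf23 had 0 in every library. For Fgf23 a count of 0 allows up to 0.0764 to 0.0906 CPM. Exons of Fgf20 overlap those of Micu3 (4210 reads over the 9 libraries) and exons of Fgf22 those of Rnf126 (7730 reads), both on the opposite strand and over 202 and 82 bases. Where the few reads of these ligands lie was not examined. These intervals and limits cover counting error only.

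Per length of exon, Fgf9 and Fgf18 were the most abundant ligands in all 3 sorts. In Sertoli Fgf9 stood at 11.6 ± 0.127 RPKM (reads per kilobase of annotated exon per 1e6 reads, SD, n = 2) and Fgf18 at 9.27 ± 0.383. In Leydig they stood at 3.91 ± 0.467 and 4.56 ± 0.509 and in Interstitial at 2.25 ± 0.00501 and 2.81 ± 0.446. In Leydig the pools of both genes overlapped (3.58 and 4.24 RPKM for Fgf9, 4.20 and 4.92 for Fgf18), and the order depends on the length used: the ratio of Fgf9 to Fgf18 was 0.857 by the union of exons and 1.01 by the longest transcript. In Interstitial the order by the longest transcript turned between libraries. There Fgf9 stood at 2.92, 2.91 and 3.31 RPKM in A, B and C, and Fgf18 at 3.42, 2.73 and 2.88. The next most abundant by the union of exons was Fgf16 in Sertoli (2.55 ± 0.0255 RPKM), and Fgf10 in Leydig and in Interstitial (1.83 ± 0.148 and 1.40 ± 0.0354 RPKM).

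The intracellular FGFs, Fgf11 to Fgf14, are not secreted ligands and are known for binding voltage-gated sodium channels. Fgf13, the largest mover among them, read 18.4, 18.4 and 18.5 CPM in Sertoli, 6.58, 6.02 and 6.25 in Leydig and 1.83, 1.47 and 2.04 in Interstitial, so that each sort stood apart with little spread. It was 11.1-fold lower in Interstitial than in Sertoli (-3.47 ± 0.15, adjusted p = 2.2e-07) and 2.93-fold lower in Leydig (-1.55 ± 0.13, adjusted p = 2.91e-05). Leydig lay 3.79-fold above Interstitial (1.92 ± 0.15, adjusted p = 3.86e-05). Fgf13 (ENSMUSG00000031137) lies on chromosome X, as does Fgf16, from 59062145 to 59568071 on the minus strand.

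Fgf11 read 10.2, 8.52 and 8.39 CPM in Leydig, 9.02, 8.18 and 7.41 in Interstitial and 6.32, 5.69 and 5.98 in Sertoli. It was higher in Leydig (0.63 ± 0.14, adjusted p = 0.00794) and in Interstitial (0.52 ± 0.14, adjusted p = 0.0121) than in Sertoli. Without Sertoli replicate B both calls were lost, and the second also without Interstitial replicate A. Fgf12 lay between 0.518 and 1.18 CPM with no difference called, and Fgf14 had 23 reads in all.

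Of the 5 receptor genes, Fgfr1 to Fgfr4 were higher in Leydig and in Interstitial than in Sertoli, and Fgfrl1 was lower in both. Fgfr1 (ENSMUSG00000031565, chromosome 8, 25513654 to 25575718), the receptor typical of mesenchyme, read 101, 91.3 and 98.3 CPM in Leydig, 120, 124 and 114 in Interstitial and 32.3, 35.4 and 33.4 in Sertoli. The Sertoli libraries were far below the others, and Interstitial was above Leydig without overlap. Fgfr1 was 2.84-fold higher in Leydig than in Sertoli (1.50 ± 0.08, adjusted p = 2.73e-06) and 3.6-fold higher in Interstitial than in Sertoli (1.85 ± 0.08, adjusted p = 1.9e-07). Leydig was 1.27-fold lower than Interstitial (-0.34 ± 0.07, adjusted p = 0.00519).

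Fgfr2, the receptor through which Fgf9 is known to act in the XY gonad, read 83.9, 80.2 and 78.5 CPM in Leydig, 91.4, 101 and 89.9 in Interstitial and 52.5, 48.4 and 49.5 in Sertoli. It was lowest where Fgf9 was highest, though still at 50.4 ± 2.93 CPM there (SD, n = 2). The difference was 0.70 ± 0.08 for Leydig against Sertoli (adjusted p = 0.000122) and 0.93 ± 0.08 for Interstitial against Sertoli (adjusted p = 1.05e-05). Leydig against Interstitial gave -0.23 ± 0.07 (adjusted p = 0.0338), which was lost without Leydig A, without Leydig B, without Interstitial B and with a filter at 1 CPM. The annotated gene model of Fgfr2 shares 314 bases of exon with Ctbp2 on the same strand, and gene counts do not separate its epithelial (IIIb) from its mesenchymal (IIIc) splice form.

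Fgfr3 read 24.9, 17.8 and 22.7 CPM in Leydig, 19.0, 16.7 and 16.9 in Interstitial and 13.9, 10.8 and 12.4 in Sertoli. Both sorts were above Sertoli, by 0.79 ± 0.18 (adjusted p = 0.00796) and 0.53 ± 0.18 (adjusted p = 0.0279), but the replicates spread more than for the other receptors. Each call was lost without Sertoli replicate B, and the second also without Interstitial replicate A. Fgfr4 was the scarcest receptor, at 3.43, 3.19 and 3.90 CPM in Leydig, 2.88, 2.71 and 2.46 in Interstitial and 1.27, 1.39 and 1.05 in Sertoli. It was 2.49-fold higher in Leydig (1.32 ± 0.20, adjusted p = 0.000887) and 2.1-fold higher in Interstitial (1.07 ± 0.20, adjusted p = 0.00148) than in Sertoli.

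Fgfrl1 (ENSMUSG00000008090, chromosome 5, 108692382 to 108706924) encodes a receptor-like protein without the tyrosine kinase domain. It read 82.8, 83.5 and 76.6 CPM in Sertoli, 43.4, 40.1 and 40.8 in Leydig and 23.0, 21.6 and 21.0 in Interstitial, the same order as Fgf9. The difference was -0.99 ± 0.07 for Leydig against Sertoli (adjusted p = 1.39e-05), 0.90 ± 0.07 for Leydig against Interstitial (adjusted p = 4.5e-05) and -1.90 ± 0.07 for Interstitial against Sertoli (adjusted p = 1.34e-07). All 3 calls held in every alternative run.

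Per length of exon, the makeup of the 4 kinase receptors differed between the sorts. Fgfr1 took 30.8 to 35.2% of their summed RPKM in Sertoli, 44.8 to 45.6% in Leydig and 49.5 to 49.7% in Interstitial. Fgfr2 took 46.1 to 47.7% in Sertoli, 34.8 to 38.1% in Leydig and 36.1 to 38.3% in Interstitial. On this scale the ratio of Fgfr1 to Fgfr2 was 0.703 in Sertoli, 1.23 in Leydig and 1.33 in Interstitial, and with the longest transcript as length 0.589, 1.03 and 1.12. The summed RPKM of the 4 was 10.2 to 10.7 in Sertoli, 20.4 to 22.8 in Leydig and 23.4 to 25.4 in Interstitial, while Fgfrl1 alone stood at 29.9 ± 0.189, 15.0 ± 0.844 and 8.01 ± 0.364 RPKM. The kinase-free gene was thus above the sum of the 4 kinase receptors in Sertoli and below it in the other sorts, as a level per length with no test.

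**Figure D3:**
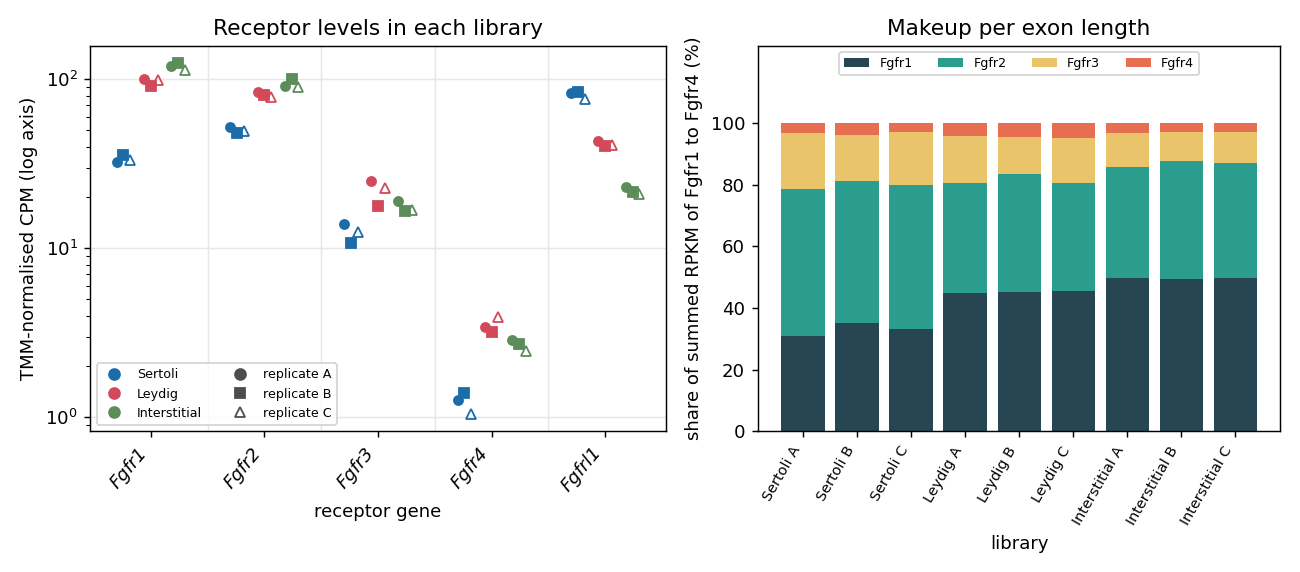
Left, levels of the 5 receptor genes in each library (gene, x axis; TMM-normalised CPM, logarithmic y axis). Right, share of each kinase receptor in the summed RPKM of Fgfr1 to Fgfr4 (percent, y axis) in each library, where Fgfr1 takes at most 35.2% in Sertoli and at least 44.8% in the other sorts.

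The feedback and target genes did not move together. Of the 9 tested, 2 were higher and 3 lower in Leydig than in Sertoli, 3 higher and 2 lower in Leydig than in Interstitial, and 4 higher and 3 lower in Interstitial than in Sertoli. That is 55.6%, 55.6% and 77.8% of the 9, beside 37.5%, 45.1% and 61.8% of all genes tested. The median log2 differences of these 9 were 0.09, 0.01 and 0.14. Even the Sprouty genes, inhibitors of receptor signalling upstream of Ras and Raf, went in different directions.

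Spry1 read 46.2, 56.2 and 48.7 CPM in Leydig, 45.0, 56.8 and 50.3 in Interstitial and 19.7, 26.7 and 20.1 in Sertoli. It was 2.21-fold higher in Leydig (1.14 ± 0.17, adjusted p = 0.000708) and 2.19-fold higher in Interstitial (1.13 ± 0.17, adjusted p = 0.000375) than in Sertoli, with Leydig and Interstitial apart by 0.01 ± 0.16. Spry4 was highest in Sertoli instead, with 53.5, 61.3 and 54.4 CPM there, 33.0, 36.1 and 33.8 in Leydig and 20.4, 21.9 and 18.7 in Interstitial. Its differences were -0.73 ± 0.09 for Leydig against Sertoli (adjusted p = 0.000298), 0.71 ± 0.09 for Leydig against Interstitial (adjusted p = 0.000495) and -1.44 ± 0.09 for Interstitial against Sertoli (adjusted p = 2.76e-06).

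Spry2 read 23.2, 27.6 and 26.9 CPM in Leydig, 23.2, 26.9 and 24.5 in Interstitial and 17.5, 18.8 and 16.0 in Sertoli, a smaller change in the direction of Spry1. It was higher in Leydig (0.49 ± 0.12, adjusted p = 0.0102) and in Interstitial (0.46 ± 0.12, adjusted p = 0.00712) than in Sertoli, and both calls were lost without Sertoli replicate A. Leydig and Interstitial differed by 0.02 ± 0.11 (adjusted p = 0.901).

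Etv5 and Etv4 are ETS transcription factors induced by ERK, and in both the lowest level was in Leydig. Etv5 read 98.2, 116 and 102 CPM in Leydig, 148, 174 and 152 in Interstitial and 177, 195 and 182 in Sertoli. It was 1.74-fold lower in Leydig than in Sertoli (-0.80 ± 0.10, adjusted p = 0.000387) and 1.5-fold lower than in Interstitial (-0.59 ± 0.10, adjusted p = 0.00209). Interstitial against Sertoli gave -0.21 ± 0.10 (adjusted p = 0.112).

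Etv4 read 14.3, 17.1 and 14.5 CPM in Leydig, 22.9, 20.7 and 19.9 in Sertoli and 29.1, 34.1 and 28.6 in Interstitial, where it was highest. The difference was -1.01 ± 0.12 for Leydig against Interstitial (adjusted p = 0.000286) and 0.53 ± 0.12 for Interstitial against Sertoli (adjusted p = 0.00365). Leydig against Sertoli gave -0.47 ± 0.12 (adjusted p = 0.0139), which was lost without Leydig replicate A or without Sertoli replicate A. Markers of several cell types were also highest in Interstitial. Higher there than in both other sorts were 9 of 9 germ cell, 8 of 8 erythroid and 7 of 7 macrophage markers. Of 8 mesonephric tubule markers 7 were higher than in Leydig and 8 than in Sertoli. Of all genes tested, 23.2% were higher in Interstitial than in Leydig and 32.7% than in Sertoli. Between Leydig and Sertoli, 7 macrophage, 2 mesonephric tubule and 1 germ cell markers were higher in Leydig, unlike Etv4, and 1 erythroid marker was lower. The part of these cells in the level of Etv4 was not tested.

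Dusp6, the phosphatase that inactivates ERK, read 163, 220 and 182 CPM in Sertoli, 170, 215 and 178 in Leydig and 104, 136 and 116 in Interstitial. Sertoli and Leydig overlapped fully (0.01 ± 0.17, adjusted p = 0.979), and both were above Interstitial. Leydig was 1.6-fold higher than Interstitial (0.68 ± 0.17, adjusted p = 0.0117), a call lost without Interstitial replicate A, with values from 0.49 to 0.87. Interstitial was 1.59-fold lower than Sertoli (-0.67 ± 0.17, adjusted p = 0.00824), a call lost without Sertoli replicate B or without Interstitial replicate A.

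Among the Spred genes, which restrain Raf activation, Spred1 was the most abundant, at 197, 200 and 209 CPM in Leydig, 178, 195 and 180 in Sertoli and 149, 150 and 161 in Interstitial. It was 1.33-fold higher in Leydig than in Interstitial (0.41 ± 0.06, adjusted p = 0.00111) and 1.25-fold lower in Interstitial than in Sertoli (-0.32 ± 0.06, adjusted p = 0.00207). The latter call was lost with scaling by library size alone. Spred2 read 23.8 to 28.1 CPM in Leydig, 20.4 to 24.4 in Sertoli and 30.0 to 34.8 in Interstitial, and was higher in Interstitial than in Sertoli (0.53 ± 0.12, adjusted p = 0.00536), a call lost without Sertoli replicate A. For Leydig against Interstitial it gave -0.32 ± 0.12 (adjusted p = 0.0632), a value that passed under 6 alternatives. Spred3 stayed between 7.11 and 9.23 CPM in all libraries with no difference called.

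**Figure D4:**
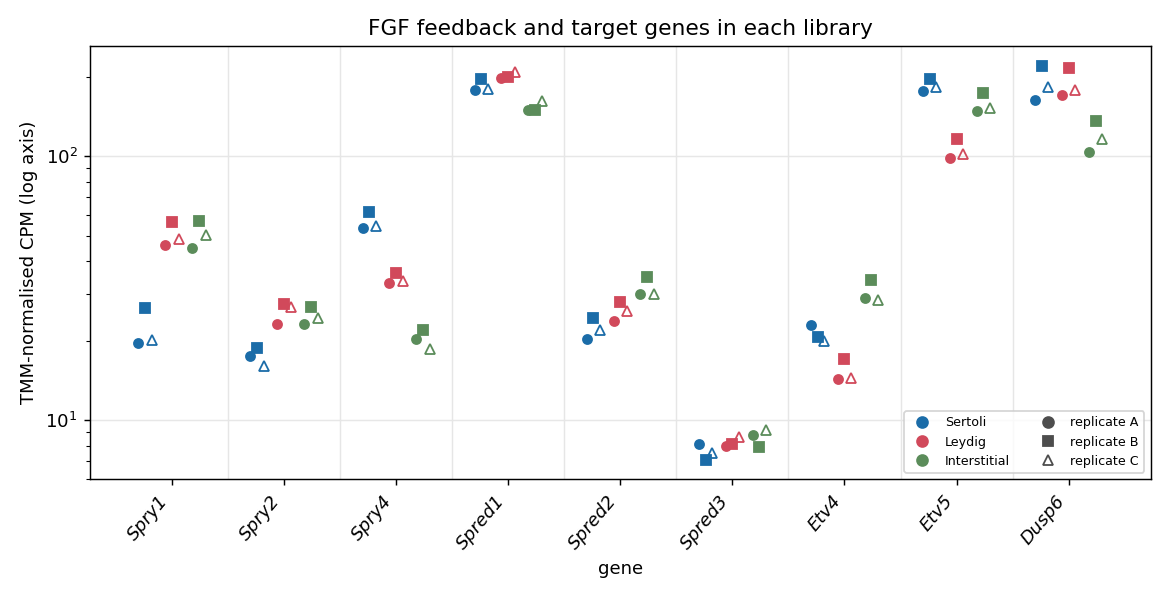
Levels of the 9 tested feedback and target genes (gene, x axis; TMM-normalised CPM, logarithmic y axis) in each library, coloured by population and with marker shape for the replicate. Spry1 is lowest and Spry4 highest in Sertoli, and within each population the replicate B square lies above the replicate A circle for Dusp6 and Spry1.

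For several feedback genes the spread within a population followed the replicate letter. The following values were examined after this had been seen. Replicate B was above replicate A in all 3 populations for 7 of the 9 feedback genes, Spry1, Spry2, Spry4, Spred1, Spred2, Etv5 and Dusp6, and for 11 of the 25 tested members. A was above B in all 3 for 3 members, Fgf2, Fgf11 and Fgfr3. Among all genes tested, 19.3% had B above A in all 3 populations and 18.4% had A above B.

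In a fit with the letter as a term beside the population, Dusp6 was higher in B by 0.39 ± 0.04 on the log2 scale (adjusted p = 0.00272) and Spry1 by 0.35 ± 0.05 (adjusted p = 0.024). These 2 members were the only ones called of 25, and 0 were called lower, while of all genes 0.903% were called (0.587% higher, 0.316% lower). Etv5 gave 0.21 ± 0.04 (adjusted p = 0.062) and Spred2 0.24 ± 0.06 (adjusted p = 0.119). No receptor was called, with Fgfr1 at 0.00 ± 0.06 and Fgfr3 at -0.35 ± 0.08 (adjusted p = 0.0945), nor was Fgf9 (0.09 ± 0.07, adjusted p = 0.597). In this fit the populations serve as the replicates of a letter. The labels do not say whether a letter marks the same sorts in each population. These p-values therefore do not measure the spread between independent pools of a letter, which also holds for the calls by letter below.

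Of 22 tested ERK targets and feedback genes outside the members, 7 were called higher in B and 0 lower. Egr2 was higher by 1.36 ± 0.09 (adjusted p = 0.000257), Egr1 by 0.84 ± 0.06 (adjusted p = 0.000387) and Fos by 0.66 ± 0.06 (adjusted p = 0.00168). These are immediate early genes, which rise within minutes of ERK activation and of many stresses. Egr2 read 14.0 and 42.7 CPM in Leydig A and B, 18.1 and 38.4 in Sertoli and 11.1 and 29.3 in Interstitial, and replicate C lay between A and B in each. The ERK phosphatase genes Dusp1, Dusp4 and Dusp5 and the immediate early gene Ier2 were the others. The labels do not say in what A and B differed beyond being separate pools.

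Cell type markers also moved with the letter. All 6 fetal Leydig markers were lower in B than in A in each population, with summed levels of 446 in A and 236 CPM in B for Leydig, 309 and 257 for Sertoli and 65 and 41.8 for Interstitial, and 2 of the 6 were called lower. Cyp11a1, which starts steroid synthesis from cholesterol, read 73.9 and 33.7 CPM in Leydig A and B, 54.3 and 42.5 in Sertoli and 10.2 and 4.41 in Interstitial. Of 8 erythroid markers 2 were higher in B in all 3 populations and 1 was called, and the embryonic globin Hbb-y read 78.0 and 285, 66.7 and 224, and 4100 and 5090 CPM. Of 7 macrophage markers 3 were higher in B in all 3 and 2 were called. The germ cell markers summed to 89.3 CPM in Leydig A and 275 in Leydig B, but to 121 and 84.5 in Sertoli and 911 and 1040 in Interstitial, and none was higher or lower in B throughout. The part of these shifts in the feedback and immediate early genes was not tested.

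**Figure D5:**
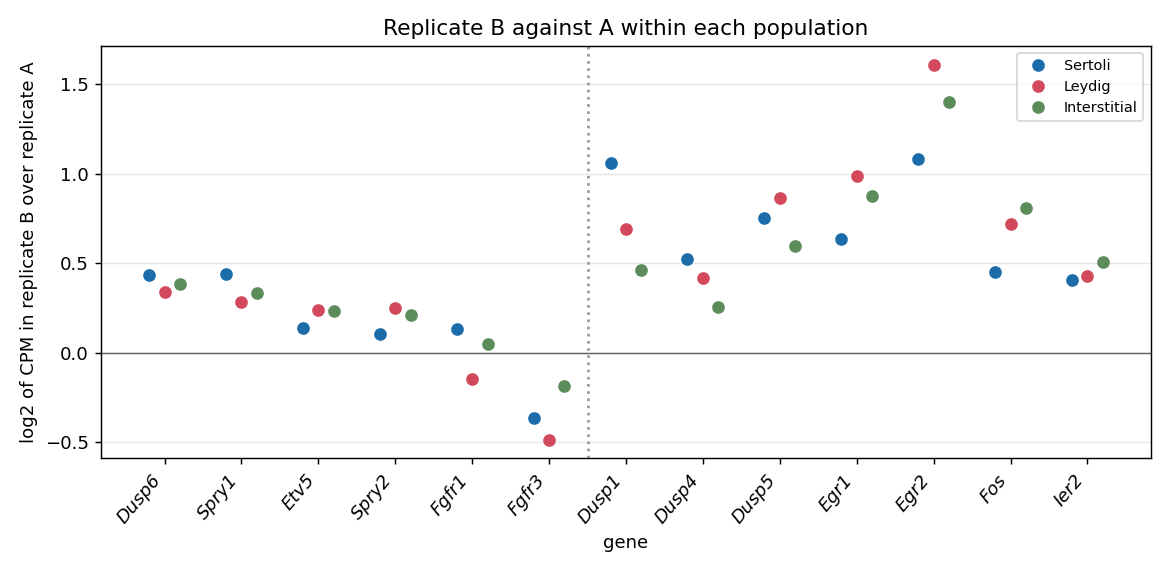
Level in replicate B over replicate A (log2 of the CPM ratio, y axis) in each population for 6 members (left of the dotted line) and 7 other ERK targets (right). All 3 populations lie above 0 for Dusp6, Spry1, Etv5, Spry2 and the 7 targets, while Fgfr3 lies below 0 in all 3. The 7 targets are those called higher in B among 22 tested, so that their side of 0 largely follows from this choice. The feedback genes Etv4 and Spred3, not shown, did not have B above A in all 3.

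Of 84 tested genes of the pathway outside the members, 20 were higher and 21 lower in Leydig than in Sertoli, 27 higher and 17 lower in Leydig than in Interstitial, and 28 higher and 28 lower in Interstitial than in Sertoli. That is 48.8%, 52.4% and 66.7% of them, beside the shares of all genes given above. Scaled by library size alone the counts were 29 and 16, 20 and 20, and 34 and 20, so that the balance of higher against lower calls depends on the scaling. The 27 fell to 15 without Interstitial replicate B, where the count over all genes also fell, from 3966 to 2565.

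Heparan sulfate chains, which hold FGFs on their receptors, are built on core proteins and edited by sulfotransferases and sulfatases. Of 16 genes for this editing, 5 were higher and 2 lower in Leydig than in Sertoli, 9 and 2 in Leydig against Interstitial, and 7 and 7 in Interstitial against Sertoli (8 and 5 with library size alone, 5 and 7 with RLE size factors). These are 43.8%, 68.8% and 87.5% of the 16, beside 37.5%, 45.1% and 61.8% of all genes tested. The 6-O-sulfotransferase gene Hs6st1 was 308 ± 20 CPM (SD, n = 2) in Sertoli, 147 ± 3.45 in Leydig and 73.5 ± 3.47 in Interstitial, a difference of -2.07 ± 0.07 for Interstitial against Sertoli (adjusted p = 6.27e-08). Sulf2 and Sulf1, whose products remove 6-O-sulfates, went the other way. Sulf2 was 62.2 ± 3.88 CPM in Sertoli, 215 ± 35 in Leydig and 165 ± 6.35 in Interstitial, with 1.79 ± 0.11 for Leydig against Sertoli (adjusted p = 5.53e-06). Sulf1 was 80.7 ± 15.2, 133 ± 6.6 and 183 ± 11.9 CPM, with 1.18 ± 0.12 for Interstitial against Sertoli (adjusted p = 3.44e-05).

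Of 13 core protein genes, 6 were higher and 3 lower in Leydig than in Sertoli, 7 and 3 in Leydig against Interstitial, and 6 and 5 in Interstitial against Sertoli. These are 69.2%, 76.9% and 84.6% of the 13, beside 37.5%, 45.1% and 61.8% of all genes tested. The syndecan Sdc4 was highest in Sertoli at 198 ± 0.552 CPM, with 82.7 ± 9.73 in Leydig and 129 ± 0.757 in Interstitial. The glypican Gpc1 was 193 ± 5.79 CPM in Sertoli and 69.2 ± 2.23 in Interstitial (-1.48 ± 0.07, adjusted p = 4.81e-07). Gpc4 was 51.1 ± 3.55 and 14.5 ± 0.852 CPM (-1.82 ± 0.09, adjusted p = 5.09e-07). Gpc3 was lowest in Sertoli, at 327 ± 14.7 CPM against 611 ± 16.1 in Leydig (0.90 ± 0.07, adjusted p = 1.48e-05).

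Of 8 tested co-receptor and binding partner genes, 4 were higher and 1 lower in Leydig than in Sertoli, 1 and 4 in Leydig against Interstitial, and 6 and 1 in Interstitial against Sertoli. These are 62.5%, 62.5% and 87.5% of the 8, beside 37.5%, 45.1% and 61.8% of all genes tested. Flrt2 and Flrt3 encode membrane proteins that bind FGF receptors. Flrt2 was 127 ± 13.1 CPM in Interstitial, 71.6 ± 2.33 in Leydig and 49.0 ± 1.64 in Sertoli, and Flrt3 was 24.4 ± 0.471, 17.8 ± 0.541 and 9.49 ± 0.3. N-cadherin (Cdh2) went the other way, at 106 ± 5.59 CPM in Sertoli and 54.7 ± 4.63 in Interstitial (-0.95 ± 0.08, adjusted p = 9.82e-06).

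Of 12 adaptor genes, 1 was higher and 5 lower in Leydig than in Sertoli, 3 and 0 in Leydig against Interstitial, and 2 and 6 in Interstitial against Sertoli. The share of the 12 called in Leydig against Sertoli was above the 37.5% of all genes tested. In Leydig against Interstitial it was 25.0%, below the 45.1% of all genes. In Interstitial against Sertoli it was 66.7%, near the 61.8% of all genes. The docking protein gene Gab1 was 137 ± 3.63 CPM in Sertoli, 89.3 ± 0.778 in Leydig and 62.6 ± 0.322 in Interstitial, and Shc1 was lowest in Sertoli (62.7 ± 1.29, against 104 ± 3.75 and 101 ± 2.27). Of 13 Ras and MAP kinase genes the counts were 1 and 3, 5 and 1, and 1 and 5, a balance that turned with library size alone in both comparisons with Sertoli (4 and 2, 5 and 3). The shares of the 13 called were 30.8%, 46.2% and 46.2%. The ERK kinase gene Map2k1 was 124 ± 1.48 CPM in Sertoli, 68.0 ± 1.92 in Leydig and 55.5 ± 2.42 in Interstitial (-1.16 ± 0.06 for Interstitial against Sertoli, adjusted p = 9.21e-07).

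Of the 22 other ERK targets and feedback genes, 3 were higher and 7 lower in Leydig than in Sertoli, 2 and 7 in Leydig against Interstitial, and 6 and 4 in Interstitial against Sertoli. These are 45.5%, 40.9% and 45.5% of the 22, beside 37.5%, 45.1% and 61.8% of all genes tested. With library size alone their counts were 5 and 6, 1 and 8, and 6 and 4. Shisa2 and Shisa3, whose products act on FGF and Wnt receptors inside the cell, had opposite orders. Shisa2 was 127 ± 2.04 CPM in Sertoli, 80.2 ± 2.69 in Leydig and 34.4 ± 0.226 in Interstitial, and Shisa3 was 0.766 ± 0.0605 in Sertoli, 3.33 ± 0.46 in Leydig and 8.81 ± 1.54 in Interstitial. The difference for Interstitial against Sertoli was -1.88 ± 0.06 (adjusted p = 5.42e-08) for Shisa2 and 3.52 ± 0.23 (adjusted p = 2.59e-06) for Shisa3.

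The authors' deposited tables of limma results list 9 of the members for Leydig against Sertoli (6 higher, 3 lower), 4 for Leydig against Interstitial (2 and 2) and 12 for Interstitial against Sertoli (6 and 6), out of 1932, 1823 and 3512 genes. In the authors' deposited table for Interstitial against Sertoli, Fgf9 has a log2 fold change of -2.22, Fgf16 of -4.03 and Fgf5 of 4.92. For Leydig against Interstitial the authors' deposited table lists Fgf13 (1.78), Fgf16 (2.13), Fgf5 (-1.43) and Etv4 (-1.03). All 25 listings have the same direction as the calls above. The smallest change in size among them is that of Etv4 (-1.03), while the calls above have no threshold on fold change, so the counts are not alike. Both come from the same study, so the shared direction is no independent support.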

How the data were processed

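The authors deposited raw counts, with a column for each lane of a library. Per the submitters' processing notes they came from TopHat2 2.0.6, HTSeq and the genome mm10, and per the labels' protocols from stranded, ribosome-depleted total RNA libraries. The release of the annotation and the strand option were not given in the sources used here. The authors also deposited limma tables with log2 fold changes and adjusted p-values, of which the model and libraries are not given.

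Counts were summed over 4 lanes. HTSeq's 5 summary lines stayed out of all totals (reads outside genes 32.23 to 38.52%, ambiguous 0.62 to 0.77%). Replicates A and B of the 3 populations (6 libraries, 3 residual degrees of freedom) were fitted with edgeR 4.0.16 in R 4.3.3 (glmQLFit, glmQLFTest, TMM, filterByExpr), with p-values adjusted over 18048 genes. The SE of a log2 difference was taken from the difference and its F statistic. Levels are TMM-normalised CPM, with SD over A and B. Symbols, positions and exon lengths came from GENCODE M21 (GRCm38, also called mm10), promoters from RefSeq. Where A and B lay apart, C lay between them in 96.2% (Leydig, 313 genes), 94.3% (Sertoli, 176) and 87% of genes (Interstitial, 246), while A or B lay between the other letters in 15.3 to 44.8% of genes so chosen.

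Every member was accounted for. Of the other pathway genes, up to 2 per list, direction and comparison could be named, those called with the largest difference and at least 5 CPM in the higher population. The members and lists were chosen with earlier results of these data known. Alternatives were RLE size factors, library size alone, other filters, DESeq2 1.42.0, limma 3.58.1 (voom), all 9 libraries, a replicate block, 2 lanes, each library left out, and another exon length. The values of B over A, the check of each letter as the mix and the scaling of the lists were added after the data had been seen.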

Additional observations from a re-analysis of the deposited data

How the results depend on the processing

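Of 1122 differences of members recomputed over 15 alternative fits, 1081 kept their side of the threshold, 23 lost the call, 18 gained one and 0 reversed with a call. Among the 1081, 21 changed sign with neither value called. Of 51 called differences, 37 were called in every alternative, and the losses are named beside the results. With all 9 libraries, which counts the mix as a replicate, members lower in Leydig than in Interstitial rose from 5 to 8, other pathway genes higher in Leydig than in Sertoli from 20 to 32 and all genes higher there from 3053 to 4714. Leaving out each library in turn gave 3 to 5 members lower in Leydig than in Interstitial, 15 to 26 other pathway genes higher there (27 with all) and 2565 to 3740 genes in all (3966), with the lone library assumed to vary like the others. The cause was not tested beyond the change in libraries. With the replicate letter as a block, members higher and lower were 11 and 8 (Leydig against Sertoli), 8 and 6 (Leydig against Interstitial) and 12 and 9 (Interstitial against Sertoli), the gains being Spred2 in the first pair of sorts and the second, and Etv5 in the last. The letters are not known to pair the samples: deviations of A from B correlated over genes by 0.017, 0.248 and 0.099 between populations. With the longest transcript as length, the ratio of Fgfr1 to Fgfr2 moved from 1.23 to 1.03 in Leydig, from 0.703 to 0.589 in Sertoli and from 1.33 to 1.12 in Interstitial, and that of Fgf9 to Fgf18 in Leydig crossed 1, from 0.857 to 1.01. Plain CPM moved 18 of 75 levels by over 1 SD, at most by a ratio of 0.948 to 1.07. Depth limits members under about 1 CPM.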
